A study of Drosophila melanogaster with 13 samples.

Results

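CG31262 (FBgn0051262) is a protein-coding gene on the minus strand of chromosome arm 3R, at 3R:17217116-17223074 of the dm6 genome. Its members here are all sites listed between those coordinates in any of the 9 deposited tables, 136 sites of the 1679136 listed across the series. The study used Pool-seq, in which the DNA of many flies is sequenced together and the share of reads that carry an allele estimates its frequency in the population. Each of the 12 pools used held genomic DNA of 100 adult females. The inbred D907 line of the Drosophila Genetic Reference Panel gave 4 pools, and Mix, an outbred population made by crossing 4 inbred panel lines including D907, gave 4 pools in each of 2 selection experiments.

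In each of these sets, P0 is the ancestral population and the control flies were kept at the standard temperature without heat shock or selection. The assimilated flies descend from lines that were heat shocked as pupae and selected for ectopic wing veins, and were later selected without heat shock. The nonassimilated flies were derived from the control population and selected for ectopic veins with no heat shock. Experiment 2 was started later from the Mix population and has a P0 pool of its own. Every population was sequenced as 1 pool, so a comparison sets pool against pool and has no replicate spread. The sites of a gene lie on the same chromosomes and are not independent of each other.

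RefSeq gives CG31262 the synonym dSLC5A14, which places it among the SLC5 transporters. In mammals this family couples the entry of sodium to the uptake of sugars, vitamins, iodide and other small solutes, and the founding members carry glucose across the gut and kidney epithelium. The Ensembl annotation holds 4 transcripts. CG31262-RB begins at the distal start site, 3R:17223074, while CG31262-RD, CG31262-RE and CG31262-RF begin at the proximal start site, 3R:17219884. CG31262-RB and CG31262-RE share an open reading frame of 579 codons. An interval enriched for H3K27ac, a histone acetylation found at active promoters and enhancers, was listed by the study across the proximal start site and the first intron of CG31262-RB. Of the 136 sites, 87 were intronic, 33 coding, 10 in a 5′ UTR and 6 in a 3′ UTR, and 24 lay within the H3K27ac interval. Of the coding sites, 22 lay at codon position 3 and 11 at position 1 or 2, read in the 579-codon frame. The tables give read counts of a reference and an alternative allele but no letter for the alternative base.

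The reference sequence around the sites that carry the main result is given on the plus strand of dm6, each as 25 bases from RefSeq with the reference base of the site in capitals. The first 4 are intronic sites within the H3K27ac interval at which D907 carries the alternative allele, and the fifth is a coding site of the same kind. The last 2 are coding sites at which the alternative allele was lost from the nonassimilated pools.
3R:17220066-17220090, site 17220078: ggtgtacattaaTcgcaattagaat
3R:17220069-17220093, site 17220081: gtacattaatcgCaattagaattaa
3R:17220151-17220175, site 17220163: tttatattagaaGaaggtaacataa
3R:17220484-17220508, site 17220496: ttaccagcgtcaTtaatctaatgag
3R:17217801-17217825, site 17217813: tactataagaaaGgctaaaattccc
3R:17218204-17218228, site 17218216: caatggtgaagaTgaatgaagcctg
3R:17219374-17219398, site 17219386: aataacgtcatgGccactaacacta
Sites 17220078 and 17220081 lie close together and had nearly the same counts in the Mix pools, so they are not separate evidence.

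D907 itself did not vary in CG31262. The D907 tables listed 39, 37 and 39 sites of the gene for the control, assimilated and nonassimilated pools, and at each of them at least 98% of the reads carried the alternative allele in all 4 D907 pools. Median depth over these sites ran from 77 reads in the assimilated pool to 89 in P0. A site was called where Fisher's exact test of the reads of both pools, Bonferroni-adjusted over the whole table, gave an adjusted p below 1e-05. In D907, 0 sites of the gene were called in any comparison and 0 had an unadjusted p below 0.05. Over all sites of the same tables, the share called against P0 was 0.0379% for the control pool, 4.38% for the assimilated and 1.84% for the nonassimilated pool, and against control it was 2.92% for the assimilated and 0.738% for the nonassimilated pool. The mean absolute change of the gene from P0 was at most 0.074 percentage points, in nonassimilated flies. The nearest site that segregated in D907 P0, taken as a frequency between 2% and 98% at 30 or more reads, lay 3212 bp below the gene on one side and 13519 bp above it on the other.

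The D907 state divides the sites listed in the Mix tables into 4 kinds. At 13 sites the alternative allele stood at 98% or more in the P0 pools as well as in D907. At 17 sites the allele fixed in D907 was the minority allele in Mix P0 (below 50%, read in experiment 1), and at 9 sites it was at or above 50%. These 9 alleles had a median of 72.3% in P0 of experiment 1 and 71.6% in that of experiment 2, and all 9 were at 98% or more in both nonassimilated pools. The other 97 sites were not listed in the D907 tables. This grouping was made with the frequencies known and is used as a description.

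In experiment 1 the D907 alleles of the 17 minority sites were at similar levels all along the gene in P0. Their frequency ran from 25.3% to 32.9% in P0, with a median of 29.4%. The control pool held 15.1% to 31.6%, with a median of 28.4%. In the assimilated pool, which listed 16 of the 17 sites, the frequency ran from 27% to 45.3% with a median of 34.7%. These 3 pools overlapped. In the nonassimilated pool all 17 sites were at 100%.

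In experiment 2, which listed 15 of these sites, the same alleles began lower at the median. Their median was higher in the control pool and higher still in both selected pools. P0 ran from 0% to 58.2% with a median of 13.4%, and the control pool from 31.9% to 62.0% with a median of 42.7%. The assimilated pool ran from 83.1% to 93.4% over 14 sites with a median of 87.9%. All 15 sites were again at 100% in the nonassimilated pool. The assimilated and nonassimilated pools lay above every P0 and control value.

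**Figure D1:**
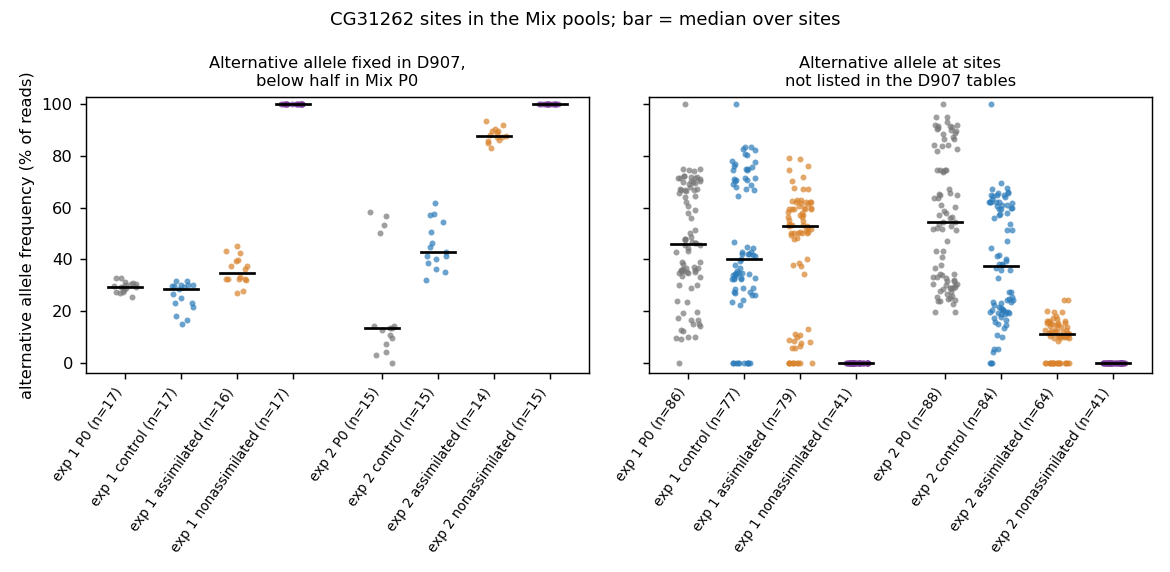
Alternative allele frequency (percent of reads) at CG31262 sites in the 8 Mix pools, 1 point per site and a bar at the median over sites. On the left, the D907 alleles that were in the minority in Mix P0 stand at 100% in both nonassimilated pools, and at a median of 34.7% and 87.9% in the assimilated pools of experiments 1 and 2. On the right, alternative alleles not listed in D907 stand at 0% in both nonassimilated pools.

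At site 17220078, an intronic site within the H3K27ac interval, the alternative allele was carried by every read in the 4 D907 pools. In experiment 1 P0 had it on 21 of 72 reads, control on 25 of 79, assimilated flies on 33 of 83 and nonassimilated flies on 91 of 91. In experiment 2 the counts were 10 of 71, 30 of 73, 61 of 68 and 72 of 72. The nonassimilated pools were thus the highest in both experiments, and the assimilated pool stood apart from P0 only in experiment 2. By Fisher's exact test the change from P0 was called in the nonassimilated pool of experiment 1 (adjusted p = 1.42e-19) and of experiment 2 (adjusted p = 3.07e-24). The same exact test called it in assimilated flies of experiment 2 (adjusted p = 1.26e-14) and did not in those of experiment 1 (adjusted p = 1). Against control in place of P0, the exact test did not call the assimilated pool of experiment 2 (adjusted p = 8.01e-04).

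Site 17220496, also intronic and within the interval, followed the same course. In P0 of experiment 1 its alternative allele took 30.5% of reads (Wilson 95% interval 21.6% to 41.1%), and control (18.0%, 11.7% to 26.7%) and assimilated flies (37.5%, 28.1% to 47.9%) lay on either side of that value. The nonassimilated pool of experiment 1 had it on all 82 reads (95.5% to 100%). In P0 of experiment 2 it took 13.4% (7.23% to 23.6%), with control higher at 40.3% and assimilated flies at 90.6% (82.5% to 95.2%). All 102 nonassimilated reads of experiment 2 carried it (96.4% to 100%). These intervals cover counting error only, since reads are not independent chromosomes of the pool.

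At the coding site 17217813, at codon position 3, the D907 allele was on 22 of 72 P0 reads of experiment 1, on 24 of 81 control reads, on 24 of 64 assimilated reads and on 89 of 89 nonassimilated reads. In experiment 2 it was read in 11 of 82, 43 of 85, 54 of 65 and 79 of 79. As at the intronic sites, the nonassimilated pools were highest and the assimilated pools next, while P0 and control of experiment 1 lay close together.

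Within the H3K27ac interval, 9 of the 24 sites carried D907 minority alleles, 4 carried D907 alleles at or above 50% in P0 and 10 were not listed in D907. The nonassimilated tables listed 15 of the sites in each experiment and 9 were called in each, where 21.4% and 20.4% of all sites of the tables were called and 40 of 80 and 40 of 77 sites across the gene. For assimilated flies, 6 of 16 listed sites were called in experiment 2 (26.2% of all sites and 36 of 98 across the gene) and 0 of 21 in experiment 1 (14.2% of all sites and 0 of 116 across the gene). The counts within the interval were thus near those of the gene as a whole. At 4 neighbouring sites, from 17220284 to 17220380, the D907 allele was already at 50% to 58.2% in P0 of experiment 2. These 4 sites stood at 87.3% to 91.9% in the assimilated pool, where none was called. At site 17220163 the D907 allele was read in 22 of 81 reads in P0 and 108 of 108 in nonassimilated flies of experiment 1, and in 8 of 83 and 67 of 67 in experiment 2, but the site was not listed for the assimilated pools. At site 17219842, in the 5′ UTR of the transcripts from the proximal start, the D907 allele was read in 21 of 64 P0 reads and 98 of 98 nonassimilated reads of experiment 1 and in 10 of 71 and 65 of 65 of experiment 2.

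**Figure D2:**
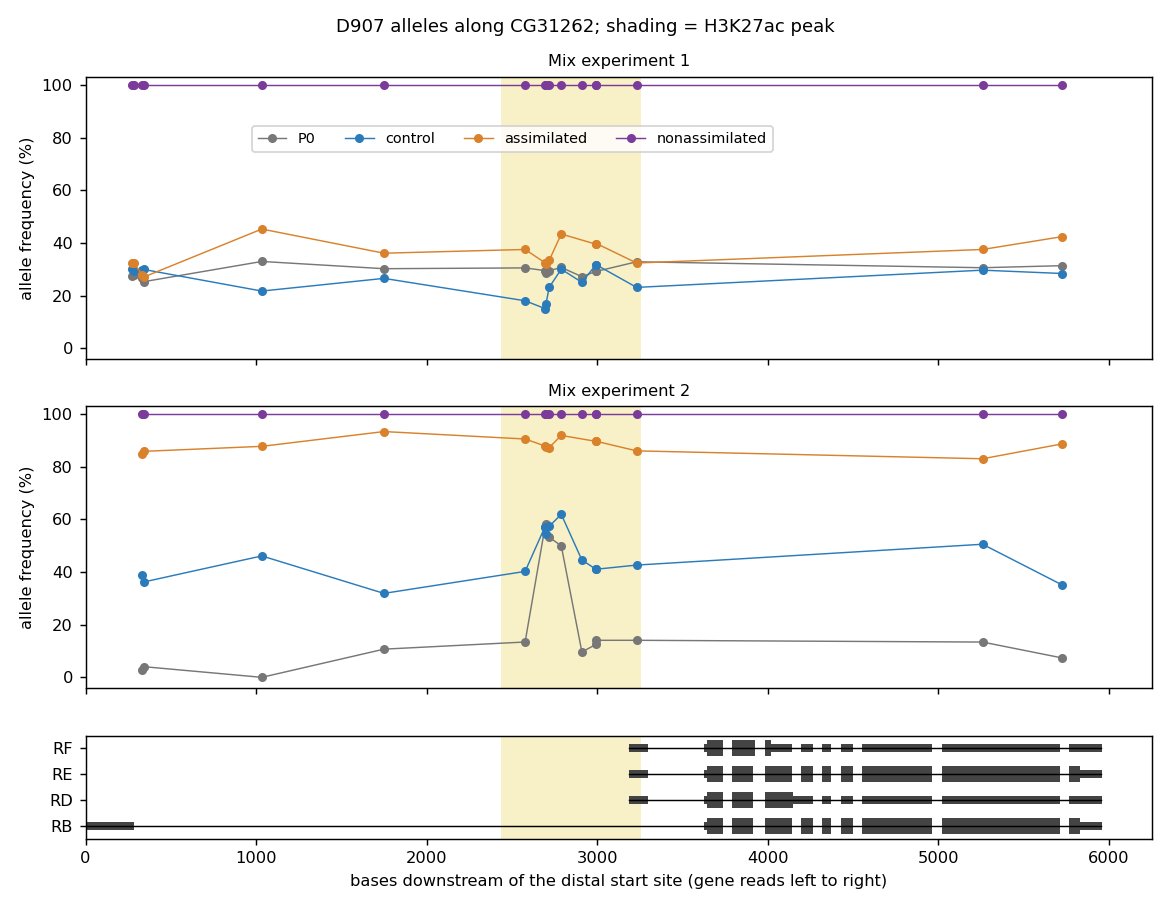
Frequency (percent of reads) of the D907 alleles at the minority sites along CG31262, against bases downstream of the distal start site, with 1 line per pool and the 4 transcripts drawn below (tall boxes coding, low boxes UTR, lines introns). The nonassimilated pools are at 100% along the gene in both experiments, and 4 sites within the shaded H3K27ac interval start at 50% to 58.2% in P0 of experiment 2.

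In the nonassimilated pools the sites not listed in D907 stood at the other end of the scale. All 41 of them that the nonassimilated table of experiment 1 listed had 0 alternative reads, as had all 41 in experiment 2. The depths given at these sites are not separate measurements. In each nonassimilated pool the 41 sites fell into 15 runs of neighbouring sites with the same depth, with up to 9 sites in a run, and the longest run spanned 565 bp in experiment 1 and 868 bp in experiment 2. The test at such a site uses the depth of its run. The 18 sites at 0 in the assimilated pool of experiment 2 fell into 12 runs. The sites of the gene listed in D907 were at 98% or more in both nonassimilated pools (39 of 39 in experiment 1 and 36 of 36 in experiment 2). So at the 80 and 77 listed sites the nonassimilated pools had the alternative allele where D907 had it. They had the reference allele where the site was not listed in D907. A site not listed gives no D907 reads, so it does not show the reference allele in D907. At site 17220066, not listed in D907, all 70 and 66 P0 reads of experiments 1 and 2 carried the alternative allele. The nonassimilated pools did not list that site. Of the sites listed in D907, 13 in experiment 1 and 12 in experiment 2 had the alternative allele in every pool and could not differ. Of the 136 sites, 53 were listed in neither nonassimilated table and could not be followed there.

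These alternative alleles began at different levels. The pools did not list all sites of a set, so the medians rest on partly different sites. At 36 of the 97 sites they were at or above 50% in P0 of experiment 1, with a median of 69.4%. Control (74.7% over 30 sites) and assimilated flies (61.5% over 35 sites) had medians close to it. In experiment 2 the median of these sites was 87.3% in P0 and 62.2% in control flies (31 sites each), and 14.0% in the assimilated pool (30 sites). Another 35 sites began between 20% and 50% in experiment 1, where P0 had a median of 36.6%. Control had 34.1% over 32 sites and assimilated flies 50% over 29 sites. In experiment 2 the medians of this set were 52.4% in P0 (34 sites), 23.5% in control (30 sites) and 10.5% in assimilated flies (21 sites). A further 15 sites began below 20% in experiment 1. At 10 of these the alternative allele was at 2% or less in the control pool and at 10 it was at 2% or less in the assimilated pool. In experiment 2 this set was at 25.0% to 37.7% in P0 over 12 sites, and all 10 of the sites listed for the assimilated pool had 0 alternative reads there. The last 11 sites were listed in experiment 2 only, with a median of 27.8% in P0 and 21.25% in control flies. The 3 of them listed for the assimilated pool had 0 alternative reads there.

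Several of the sites with the largest falls were coding. At site 17219386, at codon position 2, the alternative allele was on 54 of 78 P0 reads of experiment 1, on 45 of 59 control reads, on 29 of 58 assimilated reads and on 0 of 65 nonassimilated reads. In experiment 2 it was read in 57 of 63, 46 of 74, 5 of 52 and 0 of 50. By Fisher's exact test the fall from P0 was called in the nonassimilated pools (adjusted p = 9.96e-15 and 9.33e-20) and in the assimilated pool of experiment 2 (adjusted p = 1.04e-13). Site 17218216, at codon position 1, went from 59 of 79 P0 reads to 51 of 88 assimilated and 0 of 60 nonassimilated reads in experiment 1, and from 69 of 79 to 10 of 86 and 0 of 51 in experiment 2. The largest change among called sites of the nonassimilated pool in experiment 1 was at 17217408, at codon position 3, where the alternative allele fell from 75.0% to 0%. What amino acid these changes leave was not analysed here. Among coding sites, 12 of 24 were called in nonassimilated flies of experiment 1 and 12 of 22 in experiment 2, beside 25 of 49 and 27 of 50 intronic sites and 21.4% and 20.4% of all sites, so coding and intronic sites were called at similar shares.

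Against P0, the nonassimilated pool had 40 of 80 sites called in experiment 1, 19 with the alternative allele higher and 21 with it lower, where 21.4% of all sites of the table were called. In experiment 2 it had 40 of 77 called, 17 higher and 23 lower, against 20.4% of all sites. All 17 of the D907 minority alleles listed were called higher in experiment 1 and all 15 in experiment 2. The 2 tables shared 74 sites, of which 38 were called in both experiments, each time in the same direction. The share of all shared sites called in both experiments was not computed, so whether this count is high is not known. The mean absolute change was 39.7 percentage points in experiment 1 and 48.3 in experiment 2. Since these pools were derived from the control population, the comparison with control bears on them too. It gave 42 of 79 sites called in experiment 1 (25.2% of all sites) and 29 of 77 in experiment 2 (20.2%).

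The assimilated pools of the 2 experiments differed. In experiment 1, 0 of 116 sites were called against P0, where 14.2% of all sites were called, and 28 had an unadjusted p below 0.05. In experiment 2, 36 of 98 sites were called, 10 higher and 26 lower, against 26.2% of all sites. All 10 called higher were D907 minority alleles and all 26 called lower were sites not listed in D907. The mean absolute change was 9.0 percentage points in experiment 1 and 43.3 in experiment 2. Against the control pool in place of P0, 0 of 106 sites were called in experiment 1 (17.7% of all sites). In experiment 2 it was 16 of 94, or 17.0%, which was below the 22.4% of all sites. A direct test of the assimilated pool of experiment 2 against that of experiment 1 called 14 of 95 sites, against 27.7% of all sites, so the share in the gene was below that of the table. This test compares the pools as they ended and not their changes.

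The control pools gave no call against P0. In experiment 1, 0 of 115 sites passed (0.75% of all sites) and 23 had an unadjusted p below 0.05. In experiment 2, 0 of 120 passed (0.356%) and 69 had an unadjusted p below 0.05, and the mean absolute change was 17.8 percentage points against 7.6 in experiment 1. At the median depths, an allele starting at 29.3% had to reach 84.5% to be called in control of experiment 1. For control of experiment 2, one starting at 13.2% had to reach 66.7%, so smaller shifts could not be called. The P0 pools of the 2 experiments differed at 0 of 113 sites by the same test (2.39% of all sites), with 56 at an unadjusted p below 0.05 and a mean absolute difference of 15.0 percentage points. The control pools differed at 1 of 104 sites (5.95%). That site, 17221470, was at 36.6% in experiment 1 and at 0 of 94 reads in experiment 2. The nonassimilated pools differed at 0 of 74 sites (35.1%), and none had an unadjusted p below 0.05.

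The assimilated and nonassimilated pools were also compared directly. In experiment 1, 41 of 78 sites were called, 22 with the alternative allele higher in the assimilated pool and 19 with it lower, where 23.9% of all sites were called. In experiment 2, 0 of 75 sites were called (18.8% of all sites), with 38 at an unadjusted p below 0.05. In D907, 0 of 37 were called (1.12%). The mean absolute difference was 34.1 percentage points in experiment 1 and 7.2 in experiment 2. At the median D907 minority site of experiment 2, the step from 87.9% to 100% was not detectable at this depth.

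**Figure D3:**
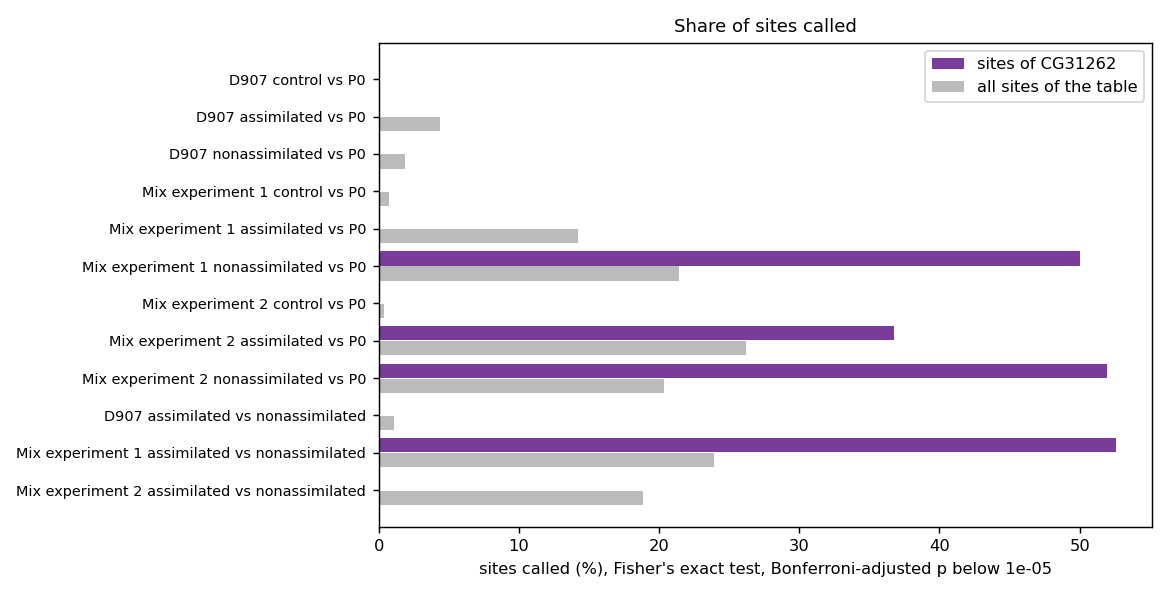
Percent of sites called by Fisher's exact test (Bonferroni-adjusted p below 1e-05) among the sites of CG31262 and among all sites of each table, for 12 comparisons. The gene exceeds the table for both Mix nonassimilated pools and for assimilated flies of experiment 2, each against P0. It also does for the direct comparison of experiment 1, and has no called site in the other 8.

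When the reads of the 2 experiments were summed, 52 of 74 sites were called in the nonassimilated pools (24.7% of all sites), 23 of 95 in the assimilated pools (26.2%) and 0 of 104 in control (1.23%). The assimilated count rests on experiment 2, since without it 0 sites were called and without experiment 1 36 were called.

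Variation within the gene followed these changes. Expected heterozygosity, the chance that a pair of reads at a site carry different alleles, was averaged over the 72 sites listed in all 8 Mix pools. In experiment 1 it was 0.325 for P0, 0.294 for control, 0.291 for assimilated and 0.00037 for nonassimilated flies. The values of experiment 2 were 0.292 for P0, 0.335 for control, 0.129 for assimilated and 0.00048 for nonassimilated flies. Of these sites 59 segregated in each P0 pool, and 0 in either nonassimilated pool. The nearest segregating sites of both nonassimilated pools lay 3212 bp below and 9162 bp above the gene, the distances also found in the D907 control, assimilated and nonassimilated pools. Within 100 kb on either side, 31 and 23 sites segregated in the nonassimilated pools of experiments 1 and 2, 22 in D907 nonassimilated flies, and 2365 and 2464 in the Mix P0 pools.

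At a pair of intronic sites an allele absent from the P0 reads was present later. Site 17222040 had 0 alternative reads of 50 in P0 of experiment 2, which allows a frequency of up to 6.0% counted as 3 reads of the depth (Wilson upper bound 7.13%), while control had 30 of 65, assimilated flies 72 of 82 and nonassimilated flies 64 of 64. In experiment 1 the same allele had 28 of 85 reads in P0. Site 17221985 had 0 of 81 reads in P0 of experiment 1, which allows up to 3.7% by the same count (Wilson upper bound 4.53%). Control had 20 of 70 at this site, assimilated flies 5 of 86 and nonassimilated flies 0 of 63. The depth of 63 was also given at site 17221470, so it is not taken as a separate measurement. Each P0 pool had 1 site at 0, so whether the depth there was shared could not be seen. Both limits rest on the depth as given.

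The genes beside CG31262 changed by similar amounts in the nonassimilated pools. No annotated gene overlaps it, and the nearest are Mur89F, a mucin-related gene 14985 bp away, and beat-IIb, of the beaten path family known in axon guidance, 9178 bp away. The mean absolute change in nonassimilated flies was 35.5 and 44.2 percentage points in Mur89F and 44.1 and 55.7 in beat-IIb for experiments 1 and 2. Among the 10 flanking genes it ran from 9.1 in lncRNA:CR44258 to 66.4 in CG44259 in experiment 1, and from 19.8 to 75.6 for the same genes in experiment 2. These extremes rest on 7 sites in lncRNA:CR44258 and 4 in CG44259 per nonassimilated table, where beat-IIb had 318 and 327. CG44259 lies within the span of beat-IIb, so its sites count in both genes. In the assimilated pool of experiment 1, CG31262 stood at 9.0 points, Mur89F at 10.9 and beat-IIb at 10.3, while m-cup, Det, Smug and CG5292, farther below the gene, stood at 21.4 to 24.8.

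**Figure D4:**
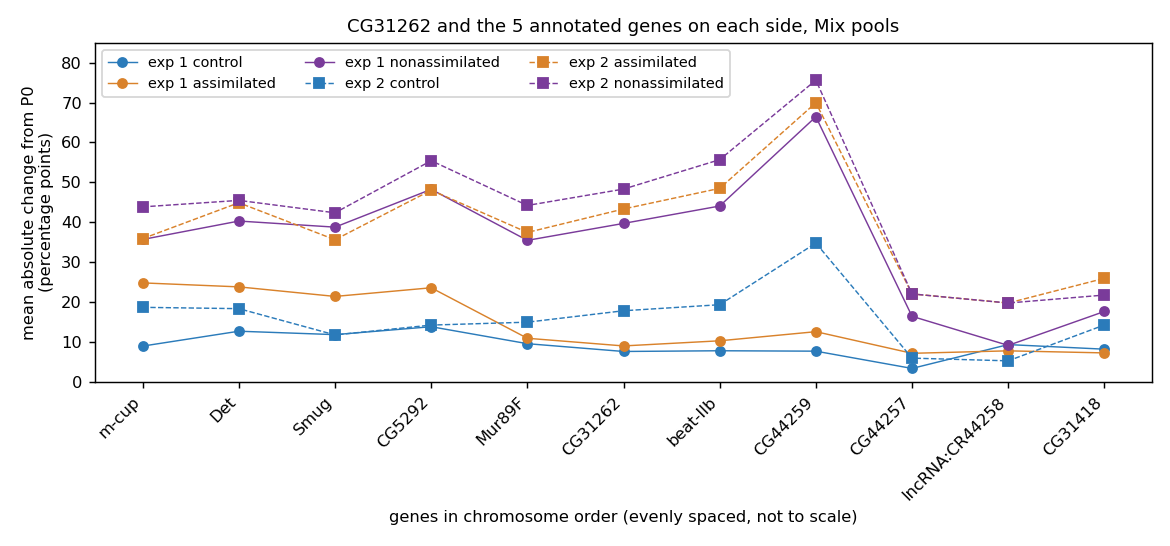
Mean absolute change in allele frequency from P0 (percentage points) for CG31262 and the 5 annotated genes on each side, in chromosome order, with 1 line per derived Mix pool. CG31262 lies at 39.7 and 48.3 points in the nonassimilated pools, between Mur89F and beat-IIb. The 3 genes farthest above it are lower and have 5 to 7 listed sites each in the nonassimilated tables.

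Pxd, a peroxidase gene on the same arm at 3R:17014576-17027987, lies much nearer to CG31262 than Ect3 does. Pxd changed by 55.8 and 63.05 points in the nonassimilated pools and by 33.2 and 54.5 in the assimilated pools of experiments 1 and 2. Whether Pxd and CG31262 changed together as a single stretch of chromosome was not tested. Ect3, a beta-galactosidase gene also on 3R at 3R:11999278-12003516, changed by 19.97 and 49.0 points in nonassimilated flies. Unlike CG31262, Ect3 changed by 38.5 points in D907 assimilated flies. SK, a calcium-activated potassium channel gene on the X chromosome, changed by 34.6 and 10.1 points in nonassimilated flies. Among 7367 genes with 10 or more listed sites in each table, CG31262 ranked 915th from the highest in nonassimilated flies of experiment 1 and 857th in experiment 2. In assimilated flies CG31262 ranked 6774th in experiment 1 and 1521st in experiment 2. In control flies CG31262 ranked 5304th in experiment 1 and 1180th in experiment 2. Among genes at least 1 Mb away, those whose 9 mean changes lay near its own, by Euclidean distance over the 9 comparisons, included Dek, Alk, Tes and CG10916, all on 2R. Dek had mean absolute changes of 7.31 and 46.8 points for the assimilated pools and 45.1 and 45.1 for the nonassimilated pools of experiments 1 and 2.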

How the data were processed

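Genomic DNA of pools of 100 females was sequenced, reads were aligned to dm6 with BWA and variants called with GATK per the labels and the study's methods, versions not being given in the sources used here. The 9 deposited tables hold, for each site, a bracketed pair of reference and alternative read counts for P0 and for 1 derived pool, which the authors extracted. The authors' own test columns (a Fisher p, its rank and a q-value) were not used. The D208 sample was not used here. Sites of CG31262 were taken by position, and frequency is alternative reads over all reads. Every table was tested whole site by site with Fisher's exact test, two-sided and Bonferroni-adjusted (Python 3.11.15, NumPy 2.4.6, SciPy 1.17.1, Numba 0.67.0), called below an adjusted p of 1e-05. The code was tested on simulated data and its Cochran-Mantel-Haenszel statistic checked against another implementation. Samples were grouped by title, and the experiment number in it pairs each Mix pool with its own P0. Over sites of the gene, the difference between experiments in P0 went with that in control at r = 0.237 (104 sites) and in assimilated at r = -0.334 (95 sites), a description over linked sites. Median depth per pool over the gene was 71 to 89 reads. Sites to name were the first 12 by position in the H3K27ac interval, the 5 called most often, the largest change per comparison, sites called in opposite directions (0 found) and the 10 coding sites with the largest change; sites 17220163, 17220496 and the group near 17220284 were chosen after their values were seen. Genes to name were 5 on each side, Pxd, Ect3 and SK, and the 5 nearest in pattern, 1 of which is not reported here. The gene, lists and sites were chosen with earlier results of these data known. Alternatives changed the threshold, the correction, the read counts (scaled to 200 chromosomes), the minimum depth (30 reads), the starting pool and the summary over sites. The comparisons between experiments were added after seeing the data.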

Additional observations from a re-analysis of the deposited data

Results flagged for a closer look

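In Mix experiment 1 the assimilated and nonassimilated pools, both selected for ectopic veins, differed at 41 of the 78 sites of CG31262 listed in both tables by a direct Fisher's exact test, against 23.9% of all sites, while in experiment 2 the same test called 0 of 75 (18.8% of all sites). Whether the difference itself differs between experiments was not tested.

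The assimilated pools of the 2 experiments differed at 14 of 95 sites when set against each other, 8 with the alternative allele higher in experiment 2. The share over all sites was 27.7%, above that of the gene. The P0 pools of the same experiments differed at 0 of 113 sites (2.39% of all sites) and the nonassimilated pools at 0 of 74 (35.1%).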

How the results depend on the processing

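With control in place of P0, no named site that was called changed direction. The other alternatives left the change at a site as it was, so they could not test its direction. Among recomputed calls at named sites 225 were kept and 25 were lost, 19 of them with control in place of P0. Benjamini-Hochberg adjustment is less strict, and every depth listed in the gene lay above the minimum depth. Neither setting could lose a call, so part of the 225 was fixed in advance. The mean absolute changes moved by less than the binomial interval that 200 chromosomes give for the frequency at a single site. That interval is not the error of a mean over linked sites, so it does not test how stable the means are. In assimilated flies of experiment 2 the mean was 43.3 percentage points and the median over sites 39.5. Benjamini-Hochberg adjustment at the same threshold raised the assimilated count of experiment 2 from 36 to 69 and the nonassimilated count from 40 to 61. It gave 1 site in the control pool of experiment 1, 6 in that of experiment 2 and 1 between assimilated and nonassimilated pools of experiment 2. Between experiments it gave 8 sites for P0, 5 for control and 52 for assimilated flies. With control in place of P0, 16 sites were called in assimilated flies of experiment 2. A threshold of 1e-08 left 12 sites for the combined assimilated pools, and 0 for control and 5 for assimilated flies between experiments. Scaling reads to 200 chromosomes left 0 and 4 of these between experiments. Apart from control in place of P0, the share over all sites was not computed at these settings. These counts therefore show how the calls depend on the setting and not how the gene stands beside the whole table.

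With the experiment as a replicate block (Cochran-Mantel-Haenszel test), the combined counts were 49 for nonassimilated, 24 for assimilated and 0 for control flies. Leaving out either experiment gave 39 to 40 sites for nonassimilated, 0 to 36 for assimilated and 0 for control flies. For the block and for these subsets the share over all sites was not computed either.

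The comparisons between experiments were chosen after seeing the data. Depth limits small changes. At the median depths of 81 and 80 reads, an allele starting at 29.6% had to reach 83.8% in assimilated flies of experiment 1 to be called, and in experiment 2 one starting at 13.3% had to reach 68.5%. Sites missing from a table could not be tested, and 1 pool per population gives no spread between replicate populations.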
